A study of Homo sapiens with 8 samples.

Results

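The response of WT HCT-116 cells to 24 h of NU6102 was read from 4 arrays, 2 of untreated WT cells and 2 of WT cells given 20 µM NU6102 (WT+NU6102), out of 8 arrays in the series. HCT-116 is a human colorectal carcinoma line, and NU6102 is a purine that inhibits the kinases CDK1 and CDK2. All cultures were grown in DMEM with serum, the duplicates were described as biological replicates, and total RNA was labelled with Cy3 and hybridized to Agilent arrays of 60-base probes. The WT arrays held parental cells in exponential growth that received no compound, whereas the methods state that inhibitors were dissolved in DMSO, so the effect of the solvent and that of NU6102 cannot be told apart here. The 4 other arrays held CDK2-/- cells, in which the gene was knocked out, and R50 cells, a line kept in 50 µM NU6102. They entered the fit only to share the estimate of spread and are named below where their values stand beside those of WT+NU6102. The arrays of WT and WT+NU6102 lay on the same slide.

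CDK1 and CDK2 are the catalytic partners of cyclins that drive entry into S phase and mitosis, and CDK2 with cyclin E acts at the start of DNA replication together with the retinoblastoma protein and the E2F factors. Type I interferon signalling is a separate pathway in which the kinases JAK1 and TYK2 activate STAT proteins. These, STAT2 among them, join IRF9 in the factor ISGF3, which binds a short element in the promoters of antiviral genes. Many tumour lines express a part of that antiviral programme without added interferon.

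The values below are normalized log2 signals, that is the log2 of the background-subtracted spot signal less the 75th percentile of its array, so that a difference of 1 is a change of 2-fold. A level is comparable between arrays for one probe and not between probes. A probe was tested when it was well above background, by the scanner software's own flag, on both WT or on both WT+NU6102 arrays. A probe or gene passed when its limma p-value, adjusted by Benjamini-Hochberg over all tested probes, was under 0.05, and it was called when its log2 fold change was also at least 1 in size. Each gene was represented by its brightest tested probe.

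The transcriptome moved in both directions, and the large changes were mostly losses. Of 27549 probes tested, 6879 passed as higher in WT+NU6102 cells (25.0%) and 6046 as lower (21.9%). Far fewer were called, 359 higher (1.30%) and 1411 lower (5.12%). Over 14775 genes, 4469 passed as higher (30.2%), 3652 passed as lower (24.7%), 173 were called higher (1.17%) and 787 were called lower (5.33%). Each count of a gene list below is to be read against these shares of all genes. Changes of at least 4-fold were lower in 153 genes and higher in 11. The median log2 fold change of all genes was 0.04. Scaled on the array median instead of the 75th percentile, the median of all genes was 0.16, and 34.6% of called probes were higher compared with 20.3% in the main scaling, so small shifts are given beside both scalings where they depend on it. Because the arrays measure equal amounts of labelled RNA from bulk cultures, fewer cells of a kind and less RNA per cell cannot be told apart.

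Losses were concentrated among dim probes. When tested probes were divided by level into 10 equal groups, in the dimmest 15.1% were called lower and 2.29% higher, and in the brightest the shares were 0.581% and 0.508%. Of the 1411 probes called lower, 534 were well above background on both WT arrays and not on both WT+NU6102 arrays, and the size of their change is uncertain. The filter also favours their direction. Of 1803 probes tested through the WT arrays only, 810 passed as lower and none as higher. Of 429 tested through the WT+NU6102 arrays only, 107 passed as higher and none as lower. The shares by level include these probes. Among the 25317 probes well above background on all 4 arrays, 877 were called lower and 292 higher. RefSeq coding transcripts (5.39% called lower) and RefSeq noncoding transcripts (5.41%) had like shares. Duplicates correlated across probes, which are not independent, with r = 0.997 for WT and r = 0.995 for WT+NU6102, and differed by a median of 0.0891 and 0.0839 log2 units.

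**Figure D1:**
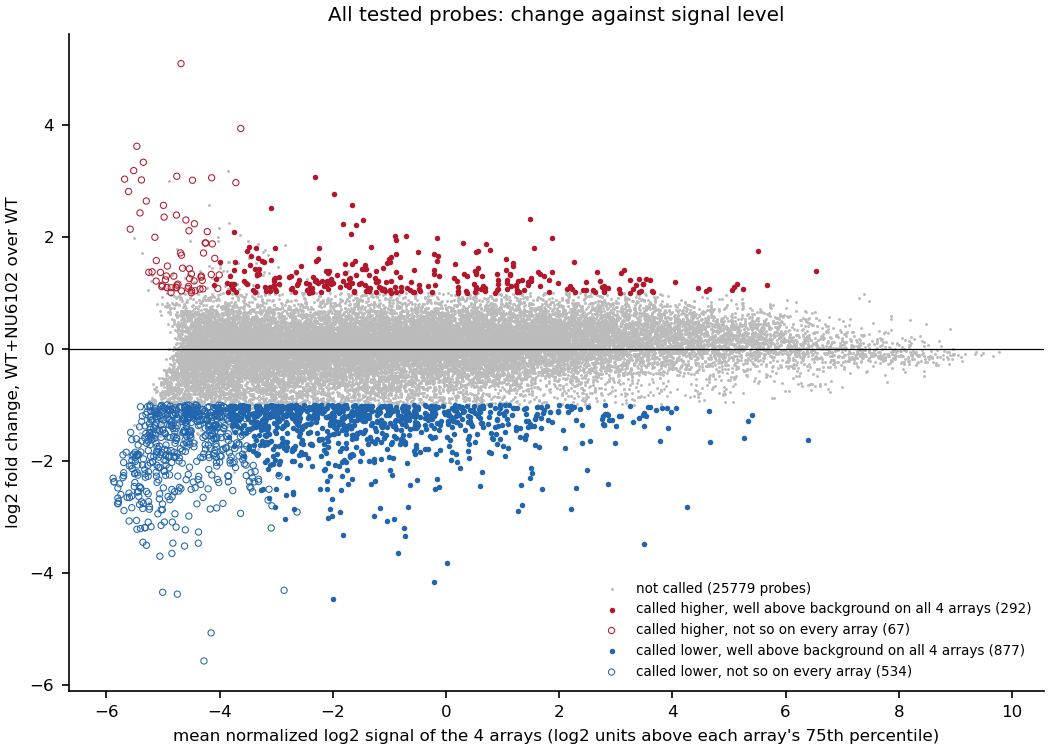
Log2 fold change of WT+NU6102 over WT (vertical axis) against the mean normalized log2 signal of the 4 arrays (horizontal axis) for the 27549 tested probes, 1 point per probe. Called probes are coloured, 359 higher and 1411 lower, and open symbols mark those not well above background on every array, which gather at the dim end.

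Most of the interferon genes tested were lower. On 4 interferon lists with 99 tested genes, 75 passed as lower, 8 passed as higher, 46 were called lower and none was called higher. Of all genes, 24.7% passed as lower, 30.2% passed as higher, 5.33% were called lower and 1.17% were called higher. Members of the 4 lists made up 46 of the 787 genes called lower and 24 of the 153 lower by at least 4-fold. They were 9 of the 15 largest falls among genes measured on every array.

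Signalling genes moved in both directions. IRF9, the DNA-binding subunit of ISGF3, stood at 1.93 and 1.91 on the WT arrays and at −1.78 and −2.02 on the WT+NU6102 arrays. This is a log2 fold change of −3.81 (SE 0.08, adjusted p = 4.59e-05 by limma), or 14.1-fold lower, and the groups lay far apart. STAT2, the ISGF3 subunit that contributes its activation domain, changed less, from 2.75 and 2.68 to 1.6 and 1.56 (−1.13, SE 0.05, adjusted p = 0.000104). Both genes were lower on each treated array than on either WT array. IRF7, a factor that amplifies interferon production, went from 4.16 and 4.0 to 1.64 and 1.69 (−2.41, SE 0.07, adjusted p = 6.07e-05). USP18, which restrains receptor signalling and removes ISG15 from proteins, and IRF1 fell by 1.06 and 0.87 on the log2 scale.

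Other signalling genes rose. IFNAR1, a chain of the type I receptor, was at −0.07 and −0.16 in WT and at 0.28 on both treated arrays (0.39, adjusted p = 0.00189). PTPN2, a phosphatase that acts on JAK and STAT proteins, rose by 0.42 and SOCS3, an inhibitor of JAK kinases, rose by 0.60. In all, 7 of 19 tested signalling genes passed as lower and 5 as higher, and the list median was 0.04, the same as that of all genes. Its sign depended on the scaling, with −0.01 after quantile normalization.

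Of 47 tested antiviral effectors, 45 passed as lower and none as higher, and 36 were called lower, with a median log2 fold change of −1.63. The median was −1.61 with 6 genes set at the bounds described below, and −1.52 on the array-median scale. The 2 that did not pass, named after their values were seen, were MX2 (−0.04) and SP100 (0.05). IFIT1, which binds viral RNA caps, was at 5.26 and 5.23 in WT and at 1.76 on both treated arrays. That is a log2 fold change of −3.48 (SE 0.05, adjusted p = 1.67e-05), measured by a probe at 91163438 to 91163497 of chromosome 10 (hg19). Its neighbour IFIT3 went from 0.69 and 0.49 to −2.43 and −2.46 (−3.03, adjusted p = 6.07e-05). MX1, a GTPase that blocks viral replication, went from −0.52 and −0.62 to −3.57 and −3.60 (−3.02, SE 0.06, adjusted p = 3.83e-05). No treated array overlapped a WT array for these genes.

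OAS1, which makes the 2-5A that activates RNase L, had the largest fall among genes measured on every array. It was at 0.35 and 0.13 in WT and at −4.21 and −4.25 after NU6102 (−4.47, SE 0.77, adjusted p = 0.00521). Its standard error was wide although both pairs of duplicates lay close, because the fit shares its spread with the CDK2-/- and R50 arrays. After normexp background correction the change was −3.16. PARP10 and PARP9, members of the ADP-ribosyltransferase family, changed by −4.15 and −3.64, and another PARP10 probe stood at −1.01 and did not pass. ISG15, a ubiquitin-like modifier, stayed bright, at 7.25 and 7.17 in WT and 5.56 and 5.60 after NU6102 (−1.63, adjusted p = 6.07e-05).

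For genes that were not well above background on either WT+NU6102 array only a bound on the fold can be given. It sets the WT mean against the mean of the treated arrays. Each of those stands at its own signal or at the array's lowest signal flagged well above background, whichever is higher. IFI44L was at least 11.2-fold lower (adjusted p = 6.07e-05), SAMD9L at least 10.3-fold lower (adjusted p = 0.000473), and RSAD2, which encodes viperin, at least 3.69-fold lower (adjusted p = 0.00738). These bounds hold for the main setting, and after normexp background correction the log2 fold changes were −2.36, −2.08 and −1.01.

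Nucleic acid sensors were also lower, with 9 of 13 tested passing as lower (69.2%, beside 24.7% of all genes) and 2 as higher. IFIH1, the cytosolic sensor MDA5, was at 1.87 and 1.78 in WT and −0.51 and −0.73 after NU6102 (−2.45, adjusted p = 6.07e-05). DHX58, the sensor LGP2, and TLR3 fell by 2.02 and 1.77. The 2 counted as higher were adaptors through which sensors signal, TICAM1 at 0.56 and MAVS at 0.52 by its brightest probe. Of 7 tested MAVS probes 5 passed as lower, down to −0.93, and 1 as higher, so that the direction for MAVS depends on the probe. In MHC class I presentation 14 of 20 genes passed as lower (70%) and 1 as higher, with a median of −0.34. On the array-median scale 10 passed as lower and 1 as higher. In the main scaling 1 gene was called. PSMB9, an interferon-inducible proteasome subunit, was that gene, from 1.93 and 1.83 to 0.12 and 0.16 (−1.74, SE 0.05, adjusted p = 6.07e-05). PSMB10 was the gene that passed as higher (0.24, adjusted p = 0.0252 by limma), and none passed as higher after quantile normalization. The chain genes HLA-B and HLA-C, named after their values were seen, were at −0.44 and −0.33.

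**Figure D2:**
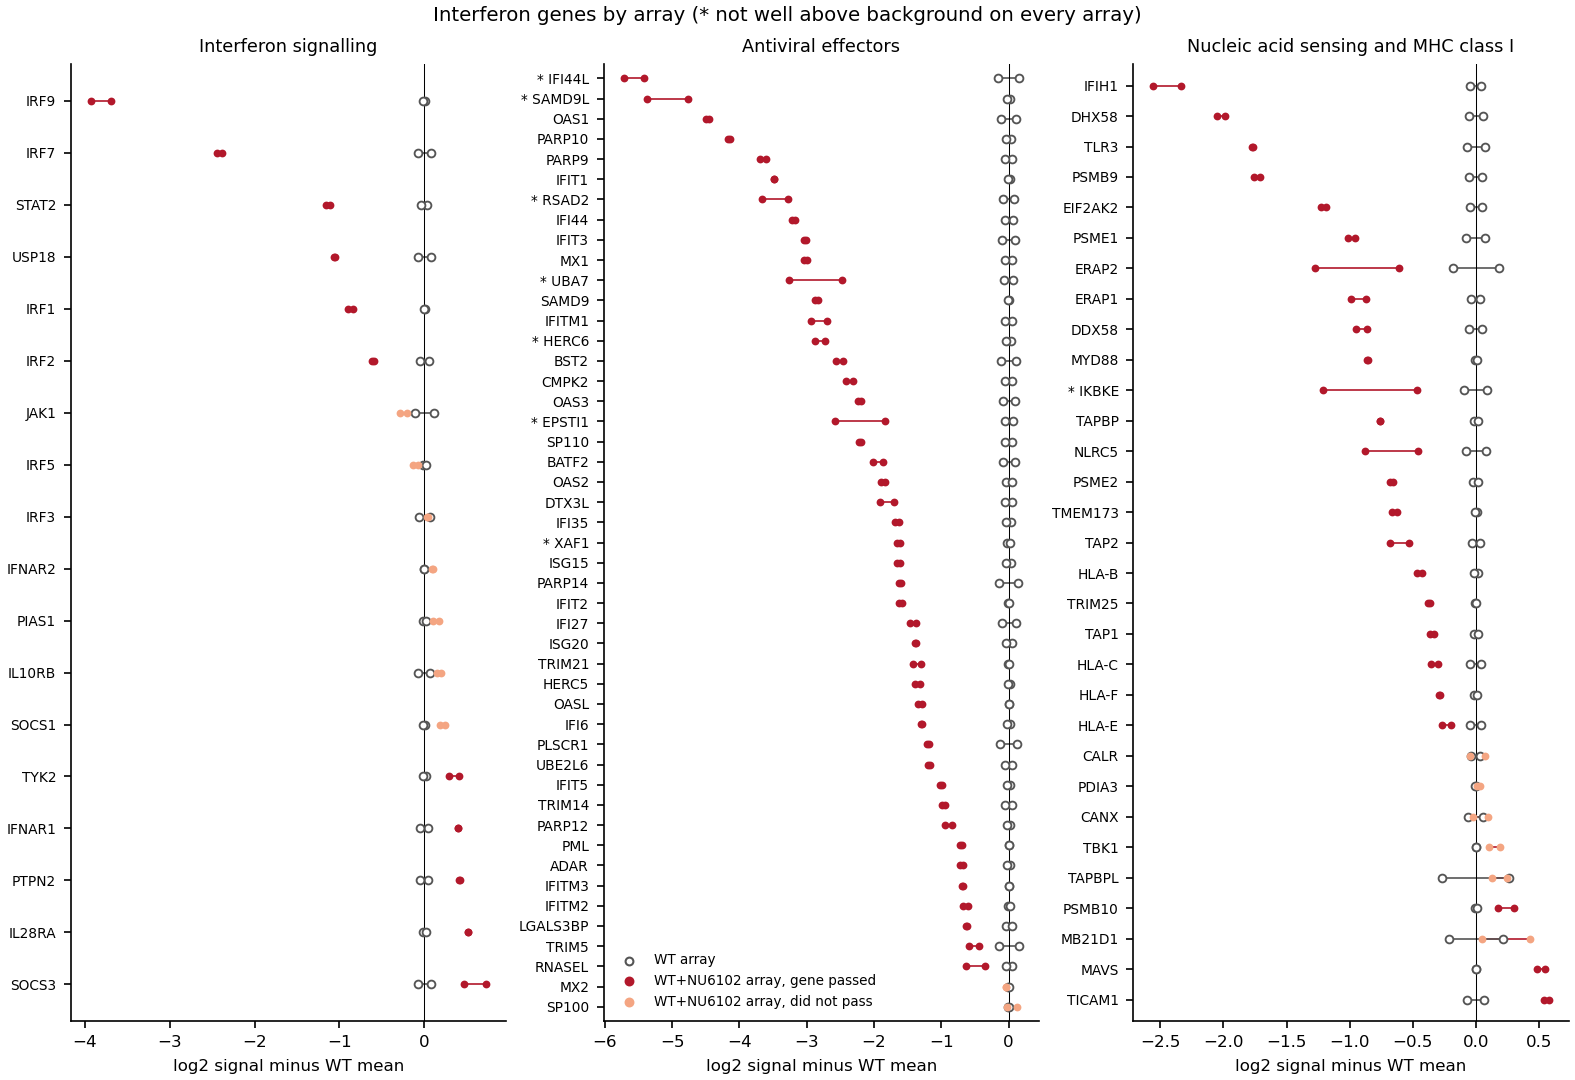
Normalized log2 signal of each array minus the WT mean of the gene (horizontal axes, log2 units) for members of the 4 interferon lists, with open symbols for the 2 WT arrays, filled symbols for the 2 WT+NU6102 arrays and a line joining duplicates. Of 47 antiviral effectors 45 passed as lower, while the receptor gene IFNAR1 and the adaptor TICAM1 lay above WT.

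Promoters were searched on either strand for the letters GAAA, then NN (any 2 bases), then GAAA. These letters are the core of the element that ISGF3 and other interferon regulatory factors bind. The shares for lists cover all tested members with a promoter, whether or not they fell. RefSeq promoters on GRCh38.p14 run from 250 bases before to 50 bases after each start. The match was present in 3.57% of all 35116 promoters and in 2.90% of the 11370 tested genes that had one. It was present in 25 of 38 antiviral effectors (65.8%), 9 of 16 MHC class I genes (56.2%), 4 of 10 sensors (40.0%) and 1 of 13 signalling genes (7.69%). Among all genes called lower it was found in 8.44%, among those on no interferon list in 4.70%, and among genes called higher in 3.82%. The promoters of IRF9, OAS1, PARP9 and STAT2 held no match in this window. A match is a description of these letters and not a measured binding site. The stretches below show the matches, in capitals, in 8 genes that fell, each read 5′ to 3′ on the strand of the gene. They are IFIT1 at chr10:89392492-89392551 (plus strand), IFIT3 at chr10:89327826-89327894 (plus), IFI44 at chr1:78649756-78649815 (plus), MX1 at chr21:41420554-41420607 (plus), ISG15 at chr1:1013369-1013428 (plus), IFITM1 at chr11:313985-314053 (plus), BST2 at chr19:17405716-17405775 (minus) and SAMD9 at chr7:93118071-93118130 (minus).
IFIT1: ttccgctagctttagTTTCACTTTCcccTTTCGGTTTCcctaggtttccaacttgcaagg
IFIT3: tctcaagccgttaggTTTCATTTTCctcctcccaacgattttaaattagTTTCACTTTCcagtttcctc
IFI44: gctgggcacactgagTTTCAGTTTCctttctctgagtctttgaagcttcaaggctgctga
MX1: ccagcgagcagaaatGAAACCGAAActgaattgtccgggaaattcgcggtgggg
ISG15: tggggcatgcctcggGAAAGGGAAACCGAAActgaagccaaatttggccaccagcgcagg
IFITM1: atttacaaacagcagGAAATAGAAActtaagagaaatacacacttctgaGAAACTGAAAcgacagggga
BST2: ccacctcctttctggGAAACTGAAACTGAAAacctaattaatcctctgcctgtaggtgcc
SAMD9: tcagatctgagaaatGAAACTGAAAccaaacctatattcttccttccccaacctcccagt
IFIT1, IFIT3 and IFITM1 each carry a pair of separate matches, and ISG15 and BST2 each carry a pair that overlap. The 8 genes changed by between −3.48 (IFIT1) and −1.63 (ISG15), and BST2, a membrane protein that tethers budding virions, changed by −2.51 and IFITM1 by −2.82. SAMD9, at −2.86, was at −1.74 after normexp background correction.

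Cyclin and CDK genes moved in both directions, more of them up than down. Of 28 cyclins, CDKs and their inhibitors 15 passed as higher and 7 as lower, beside 30.2% and 24.7% of all genes, with a median of 0.23 (0.35 on the array-median scale and 0.11 after quantile normalization). CCNE1, which encodes cyclin E1, was at 4.51 and 4.6 in WT and at 5.74 and 5.70 after NU6102 (1.16, SE 0.06, adjusted p = 0.000126), and CCNE2 rose by 1.37. CDK6, which pairs with D cyclins, was at 0.95 and 0.91 in WT and at 2.34 and 2.28 after NU6102 (1.38, SE 0.05, adjusted p = 6.38e-05). CDC25A, the phosphatase that activates CDK2, rose by 1.01. These 4 were the genes of the list called higher.

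The targets of the compound changed less. CDK2 was at −0.78 and −0.77 in WT and −0.46 and −0.43 after NU6102 (0.33, SE 0.04, adjusted p = 0.00216). The brightest CDK1 probe rose by 0.80 (adjusted p = 0.000143) and another CDK1 probe stood at 0.03 and did not pass. CCNA2, the cyclin A partner of both kinases, rose by 0.42, and the brightest CCNB1 probe, for cyclin B1, was at 0.15 (adjusted p = 0.0555) while another of its probes passed as lower at −0.79, so that the direction for CCNB1 depends on the probe. CCND1 rose by 0.57 and CCND3 by 0.84. CDK4 was at 0.32 (adjusted p = 0.00918), and did not pass without WT+NU6102 replicate 2, where its value was 0.29.

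Several brakes on the cycle were lower. CDKN1C, which encodes the inhibitor p57, went from 2.45 and 2.30 to 0.95 and 0.99 (−1.41, SE 0.07, adjusted p = 0.000118). RBL2, the pocket protein p130, fell by 1.03 and CDKN1B, which encodes p27, fell by 0.55, whereas the pocket protein genes RB1 and RBL1 rose by 0.42 and 0.64. CDKN1A, the p53 target p21, was at 0.61 and 0.64 in WT and at 0.57 and 0.77 after NU6102, which overlap (0.04, adjusted p = 0.703), and without WT+NU6102 replicate 2 its value was −0.06. The mitotic activators CDC25B and CDC25C fell by 0.81 and 0.51.

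Genes of DNA replication passed as higher in 33 of 53 cases and as lower in 9, beside 30.2% and 24.7% of all genes. The median was 0.25, with 37 higher and 5 lower on the array-median scale and 20 higher and 10 lower after quantile normalization. RRM2, the regulated subunit of ribonucleotide reductase, was at 2.15 and 2.29 in WT and at 3.38 and 3.26 after NU6102 (1.1, SE 0.07, adjusted p = 0.000196). CDC6, which loads the MCM helicase at origins, went from −2.15 and −2.24 to −1.42 and −1.34 (0.82, adjusted p = 0.000379). CLSPN and MCM10 rose by 0.78 and 0.74. Some members went down, with POLE2, a subunit of DNA polymerase epsilon, falling by 0.65 and MCM2 by 0.41. Of 10 E2F and DP genes 6 passed as higher, led by E2F6 (0.55), and TFDP2 fell by 0.48.

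Mitotic genes showed no common direction that held across scalings. Of 43 tested, 16 passed as higher and 6 as lower with a median of 0.07, and after quantile normalization 9 passed as higher and 11 as lower with a median of −0.06. INCENP and MYBL2 rose by 0.80 and 0.73, and KIF18A, a kinesin that dampens chromosome movement, fell by 0.97. In checkpoint and repair 13 of 38 genes passed as higher (34.2%, near the 30.2% of all genes) and 3 as lower (7.89%). FANCM (0.88) and EXO1 (0.85) led the rises.

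Replication-dependent histone genes, whose mRNAs normally end in a stem-loop without a poly(A) tail, were mostly lower. In all, 55 of 64 passed as lower (85.9%, beside 24.7% of all genes) and 3 as higher, with a median of −0.49. The counts were 47 and 3 on the array-median scale and 57 and 3 after quantile normalization. HIST1H4J was at 4.31 and 4.28 in WT and at 3.27 and 3.35 after NU6102 (−0.98, SE 0.05, adjusted p = 0.000132), and HIST1H4A and HIST4H4 fell by 1.03 and 1.0. The 3 that rose were HIST1H2APS1, a pseudogene, HIST3H3, a testis form of H3, and HIST1H3C, by 0.85, 0.51 and 0.44. Members of a histone class share much of their sequence, so values of single genes may hold signal from neighbours.

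Among named genes measured on every array the largest rise was that of CXCR4, the receptor of the chemokine CXCL12, measured at 136871953 to 136872012 of chromosome 2 (hg19). It was at −3.94 and −3.77 in WT and at −0.84 and −0.74 after NU6102 (3.06, SE 0.09, adjusted p = 6.07e-05), or 8.37-fold higher. After normexp background correction the log2 fold change was 2.01. AXIN2, a negative regulator and target of Wnt signalling, went from −2.88 and −3.0 to −0.30 and −0.43 (2.58, SE 0.07, adjusted p = 6.07e-05). A second AXIN2 probe gave 2.76. The nuclear receptor gene NR4A3 rose by 2.23, and DDIT3, the stress factor CHOP, went from −1.91 and −1.81 to −0.04 and 0.21 (1.94, adjusted p = 0.000115).

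The other large rises had varied roles. CYP1A1, a detoxifying enzyme induced through the aryl hydrocarbon receptor, rose by 1.79, UPP1, a uridine phosphorylase, by 1.76 and VGF, a secreted neuropeptide precursor, by 1.75. TTC14 and KBTBD8, an adaptor of a ubiquitin ligase, rose by 2.01 and 1.82, and that of KBTBD8 was 0.90 after normexp background correction. SNAR-G1 rose by 2.31 but is 1 of several near-identical copies, so that its value may hold signal from others. For INF2, at 1.98 by its brightest probe, another probe passed as lower at −0.24. For PRKAR1B, at 1.89, another passed as lower at −1.02. RPL23AP64 (2.08, adjusted p = 0.0254) and the chemokine CXCL3 (1.79, adjusted p = 0.0297) had treated duplicates over 1 log2 unit apart, and both calls were lost without either WT array, where the values lay between 1.62 and 2.22. With each treated array left out the changes lay between 1.21 and 2.95 for RPL23AP64 and between 1.002 and 2.58 for CXCL3. The call of CXCL3 was also lost without either CDK2-/- array.

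Falls outside the interferon lists were also found among the 15 largest. FOS, an immediate early transcription factor, went from 2.65 and 2.78 to −0.27 and −0.08 (−2.89, SE 0.08, adjusted p = 6.07e-05). SPTB, which encodes a spectrin of the membrane skeleton, went from −0.55 and −0.50 to −3.26 and −3.75 (−2.98, adjusted p = 0.000126). SH2D6, BTBD16 and METTL7A, now named TMT1A, changed by −3.32, −3.04 and −2.84, with BTBD16 at −1.75 after normexp background correction. DDX60, an RNA helicase known to be induced by interferon that was on none of the lists, changed by −2.99.

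**Figure D3:**
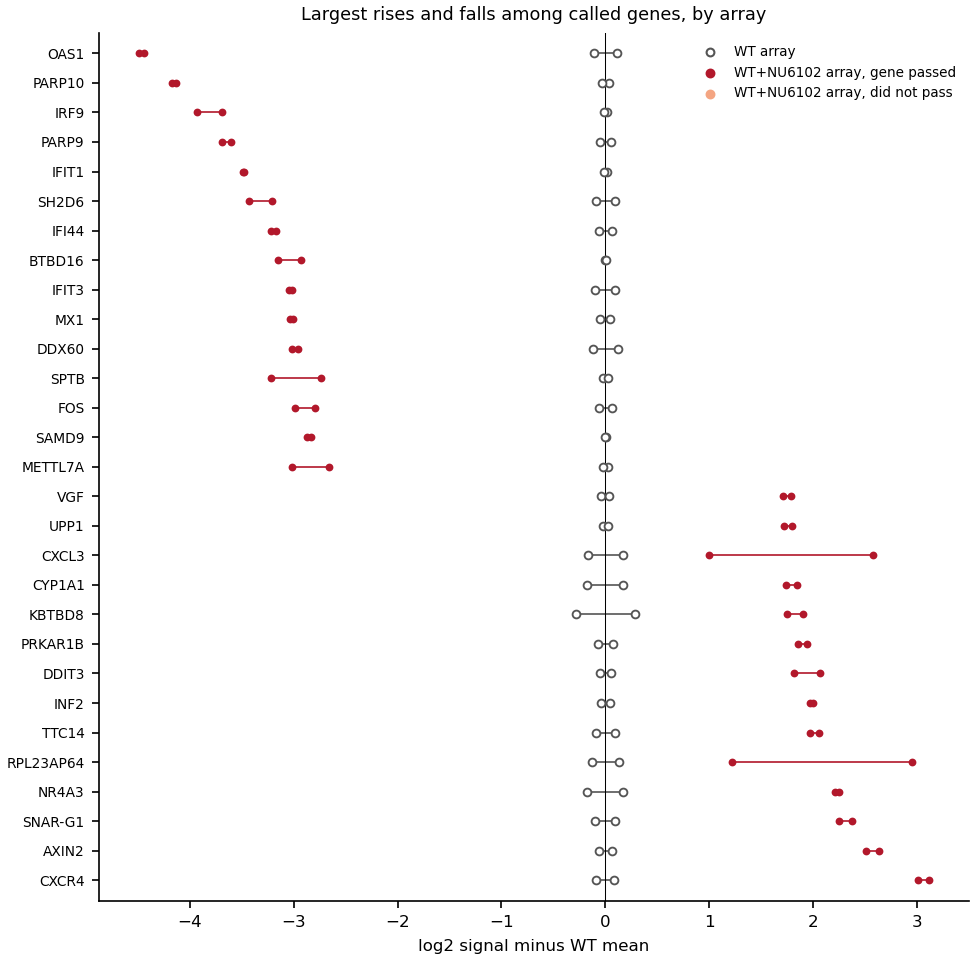
Normalized log2 signal of each array minus the WT mean of the gene (horizontal axis, log2 units) for called genes with a probe flagged well above background on each of the 4 arrays, drawn from the 15 that rose most and the 15 that fell most. Open symbols are WT arrays and filled symbols WT+NU6102 arrays, and the widest treated duplicates are those of RPL23AP64 and CXCL3.

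Signalling targets were mixed within most lists. Of 15 Wnt targets 8 passed as higher and 2 as lower with a median of 0.41. After AXIN2 the largest were SP5, from −1.32 and −1.40 to 0.34 and 0.41 (1.73, SE 0.07, adjusted p = 7.96e-05), BAMBI (1.08) and NKD1 (0.86). Of 23 immediate early genes 10 passed as lower and 5 as higher, and 10 and 8 on the array-median scale, where the median turned from −0.10 to 0.014. FOSB, JUND and EGR1 changed by −2.28, −1.20 and −1.16, against rises of NR4A3 and, by 0.66, of NR4A2. DUSP6, a phosphatase induced by ERK that turns it off, fell by 1.0, while DUSP4, another of the 14 ERK feedback genes, rose by 0.74.

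Chemokine genes of the NF-κB list divided. CXCL1 went from −1.78 and −1.69 to −0.15 and 0.08 (1.70, SE 0.12, adjusted p = 0.000257) and CXCL2 rose by 1.1. CCL5, an interferon-responsive chemokine, was at least 2.47-fold lower (adjusted p = 0.00448, log2 fold change −0.54 after normexp background correction), and TNFAIP2 fell by 1.20. Of the 19 genes 8 passed as higher and 4 as lower. Among 17 BMP and TGF-β targets 5 were higher (29.4%) and 8 lower (47.1%), beside 30.2% and 24.7% of all genes. TGFB1 and the inhibitor SMAD7 rose by 1.61 and 1.39, whereas the inhibitor SMAD6 fell by 1.84, CTGF by 1.5 (−0.63 after normexp background correction), CYR61 by 1.08, and ID1 and ID3 by 0.87 each.

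Genes for making ribosomes, proteins and proteasomes rose by modest amounts. Of 36 ribosome biogenesis genes 28 passed as higher and none as lower, with a median of 0.45 and 25 higher after quantile normalization. NOP2, an RNA methyltransferase of the nucleolus, was at 2.46 on both WT arrays and at 3.27 and 3.28 after NU6102 (0.81, SE 0.06, adjusted p = 0.000323), and GAR1 and NOP16 rose by 0.81 and 0.80. Of 36 proteasome subunits 26 rose, with PSMD12 at 0.74 and PSMD3 at 0.65, and the single fall was that of PSMB9. Of 55 translation initiation factor symbols 34 were higher and 5 lower. The subunits EIF2B2 and EIF2B4 of the factor that reloads eIF2 rose by 1.01 and 0.98. Some symbols on the list are named for eIF2 without being initiation factors, among them EIF2AK2, which encodes the kinase PKR, and the Argonaute genes EIF2C2 and EIF2C4. EIF2C2 had the largest rise of the list, 1.04, EIF2AK2 fell by 1.21, and EIF2C4 was at least 4.45-fold lower (adjusted p = 0.000229, log2 fold change −0.77 after normexp background correction). Nuclear pore and export genes were higher in 30 of 49 cases (61.2%, beside 30.2% of all genes) and lower in 3. After quantile normalization 21 were higher and 7 lower. In the main scaling NXF1 was at 0.87 and NUP155 at 0.86.

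Cytosolic ribosomal protein genes seldom passed as higher. Of 82 tested, 22 passed as lower (26.8%, near the 24.7% of all genes) and 2 as higher (2.44%) with a median of −0.12, but only 2 were lower and 3 higher on the array-median scale, so their direction depends on the scaling. RPL29 was at −0.36 and RPL27A at 0.96. Among 27 transcriptional CDK and elongation genes 13 were higher and 6 lower. CCNT1, the cyclin of the elongation kinase P-TEFb, rose by 0.79, and CCNL2 and POLR2A, the largest subunit of RNA polymerase II, fell by 0.79 and 0.47. Of 47 SR and hnRNP genes 19 were higher and 5 lower, 28 and 2 on the array-median scale, and 16 and 7 after quantile normalization, where the median turned from 0.13 to −0.0047, with HNRNPU at 0.75 and SRSF7 at −0.73.

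Sterol synthesis genes fell together. Of 32 genes of cholesterol and fatty acid synthesis 25 passed as lower and none as higher, with a median of −0.62. The counts were 22 lower and 2 higher on the array-median scale and 29 lower and none higher after quantile normalization. INSIG1, which retains the SREBP escort protein in the endoplasmic reticulum, was at 2.54 and 2.50 in WT and at 0.79 and 0.76 after NU6102 (−1.74, SE 0.07, adjusted p = 7.40e-05). SREBF1, the gene of SREBP-1, went from 6.03 and 6.07 to 4.48 and 4.45 (−1.59, SE 0.05, adjusted p = 6.07e-05). FDFT1, squalene synthase, was at 3.62 and 3.60 in WT and at 2.64 and 2.61 after NU6102 (−0.99, adjusted p = 0.000104).

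Of 28 genes of the amino acid and ER stress response 12 were higher and 8 lower, and 12 and 3 on the array-median scale, where the median turned from −0.015 to 0.099. The rises were led, after DDIT3, by the amino acid transporter genes SLC3A2 (0.86) and SLC7A11 (0.72) and by DNAJB9 (0.84), while HSPA5, the ER chaperone BiP, was at 3.24 and 3.17 in WT and at 2.85 and 2.79 after NU6102 (−0.38, adjusted p = 0.00310). Of 21 cytosolic chaperones 14 were higher, including HSPA4L (0.91) and HSPA1B (0.87), and HSPB1 fell by 0.71. In glycolysis and the hypoxia response 13 of 29 were higher, such as the glucose transporter gene SLC2A1 (0.84), and 9 lower, such as ALDOC (−1.35) and NDRG1 (−1.08). The lysosomal channel gene MCOLN1 rose by 1.14, the largest of 16 rises against 7 falls among 36 lysosome and autophagy genes. Of 84 respiratory chain symbols 30 were higher (35.7%) and 10 lower (11.9%), beside 30.2% and 24.7% of all genes. After quantile normalization 17 were higher and 17 lower.

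**Figure D4:**
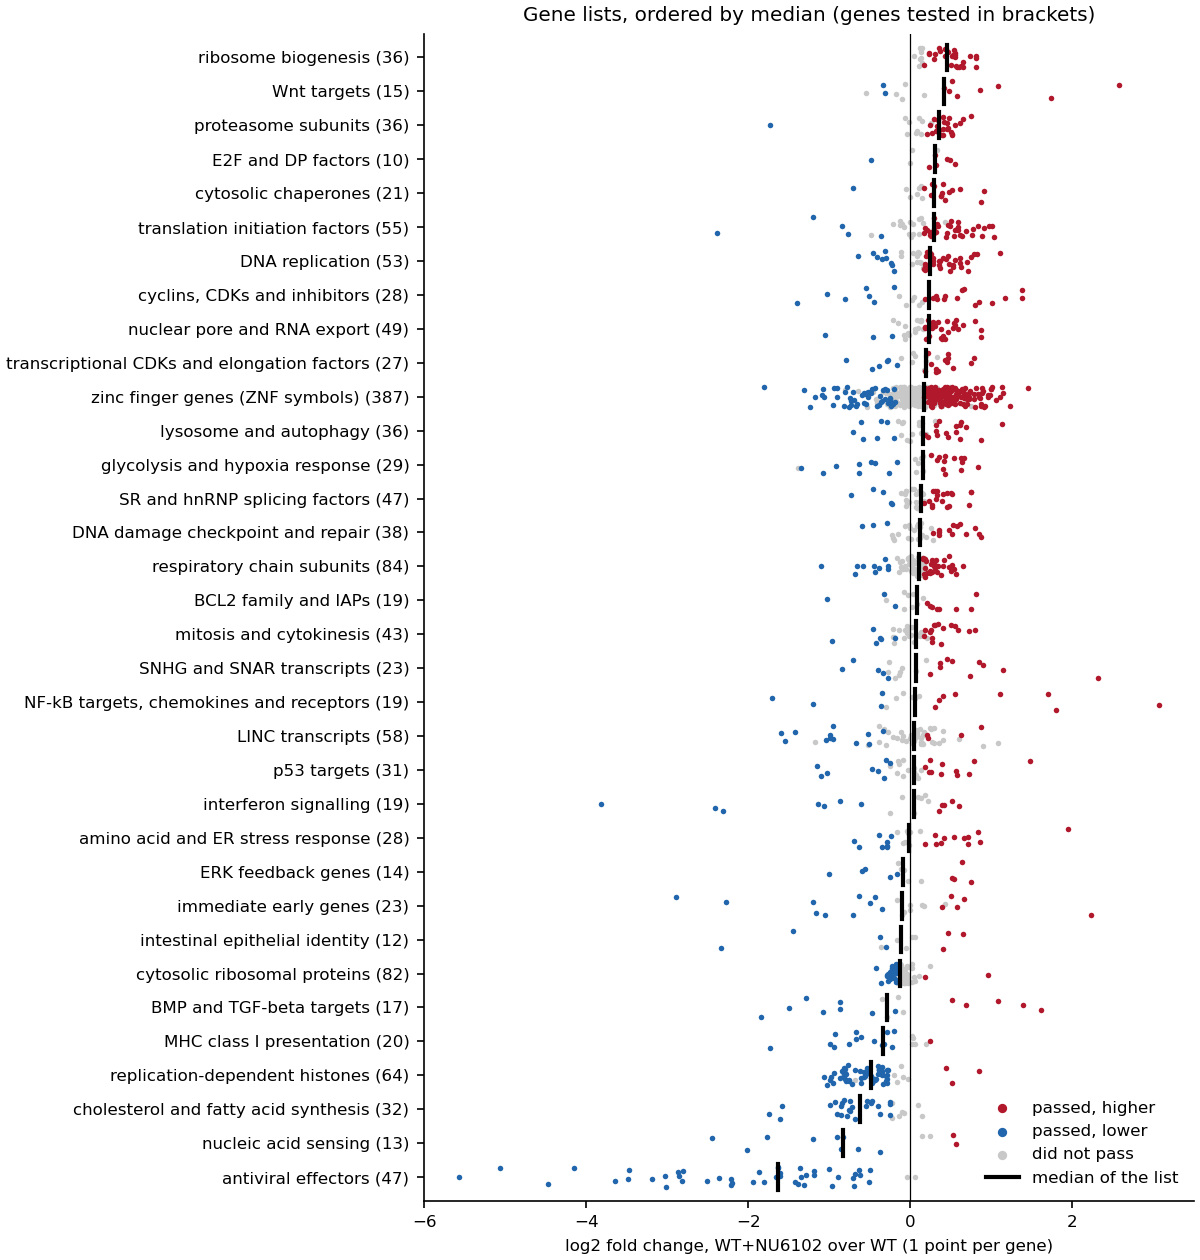
Log2 fold change of WT+NU6102 over WT (horizontal axis) for each tested gene of 34 lists, 1 point per gene, coloured where the gene passed, with the median of each list as a black bar. Antiviral effectors (median −1.63) and ribosome biogenesis (median 0.45) lie at the ends, and the median of all genes was 0.04.

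The p53 targets had no common direction, with 11 of 31 higher (35.5%) and 8 lower (25.8%), beside 30.2% and 24.7% of all genes, and a median of 0.04 (−0.08 after quantile normalization). The death receptor gene TNFRSF10A went from 0.48 and 0.42 to 1.92 and 1.94 (1.47, SE 0.05, adjusted p = 6.81e-05), while BBC3, which encodes PUMA, and TP53INP1 fell by 1.03 and 1.16. In the BCL2 family 8 of 19 genes were higher (42.1%), led by BCL2 (0.81) and BAK1 (0.75), and 3 lower (15.8%). After quantile normalization 5 were higher and 3 lower, and the list median turned from 0.077 to −0.0068. BCL2 did not pass without WT replicate 2 or either WT+NU6102 array, where its value was between 0.50 and 0.93, nor in the fit of the 4 arrays alone (adjusted p = 0.0672). Zinc finger genes with ZNF symbols, a large family of repressors, were higher in 146 of 387 cases (37.7%) and lower in 51 (13.2%). LINC transcripts were lower in 12 of 58 cases (20.7%) and higher in 4 (6.90%), and 10 were higher and 11 lower on the array-median scale.

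The epithelial markers EPCAM, CDH1, KRT8 and KRT18 were well above background on all 4 arrays, as epithelial cells express them. Of the 18 markers on the epithelial list 11 were so, among them CDX1, CDX2, LGALS4, KLF5 and MUC2. In contrast, 5 of the 18 were so on no array, namely VIL1, CDH17, HNF4A, CEACAM5 and FABP1. Of 12 tested genes of the epithelial list 3 passed as higher and 4 as lower, with a median of −0.11. Its summed signal, which bright genes dominate, was between 8.90 and 8.93 in WT and between 9.12 and 9.18 after NU6102. KRT20, a keratin of differentiated colon epithelium, was at least 4.29-fold lower (adjusted p = 6.07e-05, log2 fold change −0.79 after normexp background correction), and ELF3, an epithelial transcription factor, went from 1.98 and 1.96 to 0.51 and 0.53 (−1.45, adjusted p = 8.98e-05). EPCAM and KRT8 rose by 0.40 and 0.65, while CDH1 fell by 0.37 and KRT19 by 0.30. Of the other cell types, 5 of 9 haematopoietic markers (PTPRC, CD3D, CD14, CD68 and SPI1), 2 of 6 endothelial markers (VWF and CDH5) and 2 of 10 fibroblast markers (COL1A1 and ACTA2) were well above background on all 4 arrays, whereas PECAM1 and COL3A1 were on none. The summed haematopoietic list was between 0.32 and 0.56 in WT and between 0.13 and 0.21 after NU6102, and the fibroblast list, with 8 of 10 genes not well above background on any array, was between −0.84 and −0.69 in WT and between −1.37 and −1.15 after NU6102. The part of these markers in the losses above was not tested.

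The same genes were read in CDK2-/- and R50 cells against the same WT arrays, across slides, so that slide and group cannot be told apart there and the comparisons share their controls. IFIT1 was at −5.03 in CDK2-/- and −1.47 in R50 cells, beside −3.48 with NU6102. IRF9 was at −2.57, −0.23 (adjusted p = 0.109) and −3.81 in the same order. FOS was at 0.10 (adjusted p = 0.405), 0.35 and −2.89, and CXCR4 at −0.48, −0.20 (adjusted p = 0.154) and 3.06. CCNE1 was at 0.72, −0.33 and 1.16. AXIN2 was at 1.43, 0.39 and 2.58, and CDK6 at 0.10 (adjusted p = 0.168 by limma), 1.61 and 1.38. The differences between these effects were not tested.

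Different probes of a gene usually moved alike. Of 4322 genes with several tested probes, 1678 had more than 1 that passed, and these had the same direction in 1462 and opposite directions in 216. In 3 genes, C9orf171, PRKAR1B and MPRIP, probes were called in both directions.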

How the data were processed

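Gene expression was measured on 8 one-colour Agilent arrays, 2 per group. The authors scanned them with Agilent Feature Extraction 11.5.1.1, per the labels, and deposited an intensity for each of 62976 spots, from which background had been subtracted and which had not been normalized between arrays. A table of log2 values that the authors made with GeneSpring GX, where every probe is centred on the median of its 8 values, served as an alternative. That centring removes levels and leaves differences between arrays, whose scale and direction matched those computed here (slope 0.999 across 27549 probes), and its column medians lay between −0.021 and 0.023.

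Spots that were controls or flagged as outliers were dropped, log2 was taken, each array was reduced by its own 75th percentile, and spots of a probe were averaged. A probe counted as well above background on an array when at least a share of 0.5 of its spots carried that flag. Between 32376 and 34586 spots per array were so for the groups compared, 31 of 50599 probes had no usable spot on an array, and no spot was saturated. Precision is limited by how few arrays there were. Limma 3.58.1 (R 4.3.3, with data.table in version 1.17.8) fitted all 8 arrays in 4 groups, and the contrast WT+NU6102 less WT was tested, two-sided, with Benjamini-Hochberg adjustment over all tested probes. On simulated data for this contrast, 172 of 200 changed probes among 27549 were recovered and 1 unchanged probe was called. Every planted log2 change was larger than the 1 needed for a call, and the noise was normally distributed with no floor of signal. The share of probes changed was far smaller than the share that passed in the data. The counts given here pool all planted sizes and signal levels. Recovery of smaller changes was not tested, and that of dim probes was not tested separately.

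WT and WT+NU6102 lay on slide 2 and the other groups on slide 1. A slide effect could not be fitted beside the groups, and the fit of the 4 arrays alone stands for it. Replicate numbers did not pair the samples, since the deviations of same-numbered WT and WT+NU6102 arrays correlated with r = −0.013.

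Genes carry the symbols in the scanner files, whose probe positions are on hg19. RefSeq transcripts were given for 20381 tested probes, of which 19818 were found in the RefSeq annotation of GRCh38.p14, 2752 of them under another symbol. Promoter sequences come from RefSeq on that build. Members and gene lists were chosen with earlier results of these data known, so no test was made of any list. The named genes were a set of cell cycle genes of the study, 6 interferon genes, for called genes with a probe flagged well above background on each of the 4 arrays the 15 that rose most and the 15 that fell most, and up to 4 passed members of each list in each direction. Further members, such as BST2, IFITM1, RSAD2, IRF1, USP18, RBL1, CDC25C, ID1 and ID3, were named after their values were seen. The alternatives comprised normexp background correction (offset 50), quantile normalization, scaling on the array median, other filters on dim probes, a trended prior variance, the authors' values, a replicate block, a Student t-test (which the study's methods name for group comparisons in general, while for the arrays they name a one-way ANOVA), other fold thresholds, the mean over probes, and leaving out each array. Some genes of the lists are counted but not reported here by name. Figures were drawn with Python 3.11.15 and matplotlib 3.10.9.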

Additional observations from a re-analysis of the deposited data

How the results depend on the processing

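Without a minimum fold change the called probes were the 6879 higher and 6046 lower ones that passed, and with at least 4-fold they were 34 and 251. Normexp background correction left 151 called higher and 480 lower, scaling on the array median gave 590 called higher, and the stricter filter on dim probes gave 878 called lower. A Student t-test on these 4 arrays passed 6434 probes as higher and 5191 as lower at an unadjusted p under 0.05. After Benjamini-Hochberg adjustment it passed 3171 and 2448, of which 231 and 777 were called, and it passed 8 MHC class I and 16 histone genes as lower and 17 replication, 14 ribosome biogenesis and 16 proteasome genes as higher. Quantile normalization left 20 replication genes higher. All other counts of probes and of the 7 lists recounted lay within 1.5 times the main count.

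With each array left out in turn, 5149 to 6784 probes passed as higher and 4791 to 6018 as lower, 341 to 440 were called higher and 1307 to 1570 lower, and 43 to 45 antiviral effectors passed as lower. With a replicate block, on numbers that do not pair the samples, 6705 probes passed as higher and 5901 as lower, and 357 and 1400 were called.

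The median of mitotic genes turned to −0.062 and that of interferon signalling genes to −0.014 after quantile normalization, and the latter was between −0.024 and 0.093 with each array left out. MX2 turned to 0.0098 after quantile normalization and to 0.077 on the array-median scale. With each array left out, CDKN1A lay between −0.061 and 0.15 and SP100 between −0.019 and 0.13, and neither gene had passed. CCNB1 passed as higher on the array-median scale (0.26), and HLA-C did not pass there (−0.21). Depth of signal limits the dim genes, whose folds shrank most after normexp background correction, and the cause of the other shifts was not tested.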
